A study of Homo sapiens with 16 samples.

Results

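The genes described here make cholesterol and fatty acids or control that synthesis. They are 33 genes picked by symbol from the 37864 genes of the deposited count table, and all 33 had enough counts to be tested among 17991 tested genes. By role they are 18 enzymes of the sterol pathway, 5 genes of the SREBP system with a sterol carrier, and 10 enzymes that make, activate or modify fatty acids. RNA was sequenced from MDA-MB-231 cells, an established human triple-negative breast cancer cell line grown in DMEM with fetal bovine serum. The 4 groups were cells given the solvent DMSO, afatinib, paclitaxel (also spelled pacliataxel in the titles) or both drugs together, called the combination, with 4 libraries each. Afatinib blocks the kinases of the EGFR family irreversibly, and paclitaxel stabilises microtubules and arrests cells in mitosis. Doses and exposure times are not given in the sources used here, and every group is the same cell line.

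Cholesterol is built from acetyl-CoA through mevalonate, the isoprenoid farnesyl diphosphate, squalene and lanosterol. Fatty acids are built from the same acetyl-CoA, which the cytosol draws from citrate or acetate, and are then elongated and desaturated. Both pathways are switched on by the SREBP transcription factors, which are held in the endoplasmic reticulum with their escort SCAP while INSIG proteins sense enough sterol, and are cut free when sterol is low. SREBP-2 mainly drives sterol genes and SREBP-1 mainly fatty acid genes, and growth signals from receptor kinases are known to raise SREBP activity in tumour cells.

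The libraries held 28.4M to 48.1M counts each, of which the members together took 0.293 to 0.492%. Replicates 1 and 2 of each group carry higher labelled RNA concentrations than replicates 3 and 4, and the 2 kinds are called concentration sets below. The mean concentration in the first set was 1171 ng/µl (DMSO), 1002 ng/µl (afatinib), 388 ng/µl (paclitaxel) and 623 ng/µl (combination), and in the second set 311, 184, 252 and 143 ng/µl in the same order. The mitochondrially encoded share of counts moved with it, from a mean of 2.32% (DMSO) to 3.32% (paclitaxel) in the first set and from 4.40% (DMSO) to 8.74% (combination) in the second. Concentration and this share differ between treatments within a set too, and their part in the treatment differences cannot be told apart. CPM are counts scaled to library size. Of the markers of the line, the mesenchymal gene VIM stood at 1116 ± 71.6 CPM in DMSO (SD, n = 4) and the luminal receptor gene ESR1 at 0.242 ± 0.0686 CPM. The summed CPM of 6 mesenchymal markers was 3966 to 7426 and of 9 luminal markers 709 to 1111 over all libraries. ESR1 thus lay far below the sum of its list and does not stand for the other luminal markers. The summed CPM of adipocyte markers was 1.06 to 2.72 (4 of 5 genes found) and of hepatocyte markers 1.21 to 3.06 (5 of 5). The adipocyte gene LEP was at 0 in every library of 3 groups. Fibroblast markers summed to 9.61 to 23 CPM (3 of 4 genes found) and endothelial markers to 2.69 to 9.25 CPM (4 of 4). Blood markers summed to 0.0213 to 0.259 CPM (3 of 4). Nothing in the labels says that replicates were separate cultures, so p-values speak only of differences between these libraries, whose spread may be technical. In bulk RNA, a change in how many cells are in a state and a change of RNA per cell cannot be told apart.

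Levels are compared between genes only per length, as RPKM (CPM divided by gene length in kilobases). In DMSO, ACLY, which splits citrate into acetyl-CoA, had the highest RPKM at 115 ± 3.91 (SD, n = 4). FASN, the synthase of palmitate, followed at 80.7 ± 10.5 and SCD, the stearoyl-CoA desaturase, at 68.6 ± 26.7. These 2 did not differ beyond their spread, and FASN exceeded SCD in 2 of the 4 libraries. The SD here spans both concentration sets, and SCD in DMSO averaged 246 CPM in the first set and 490 CPM in the second. SREBF1, which encodes SREBP-1, stood at 39.3 ± 18.5, and FADS1 and DHCR7 came next at 31.4 ± 6.61 and 30.9 ± 10.4, again within their spread. The lowest were CYP51A1 at 1.43 ± 0.416, TM7SF2 at 1.22 ± 0.16 and ACACA at 0.182 ± 0.0533. ACACA, the cytosolic acetyl-CoA carboxylase, stands on 2 identifiers in the table, 1 of them outside the primary assembly, and had only 52 to 147 counts per library, so its level is uncertain.

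**Figure D1:**
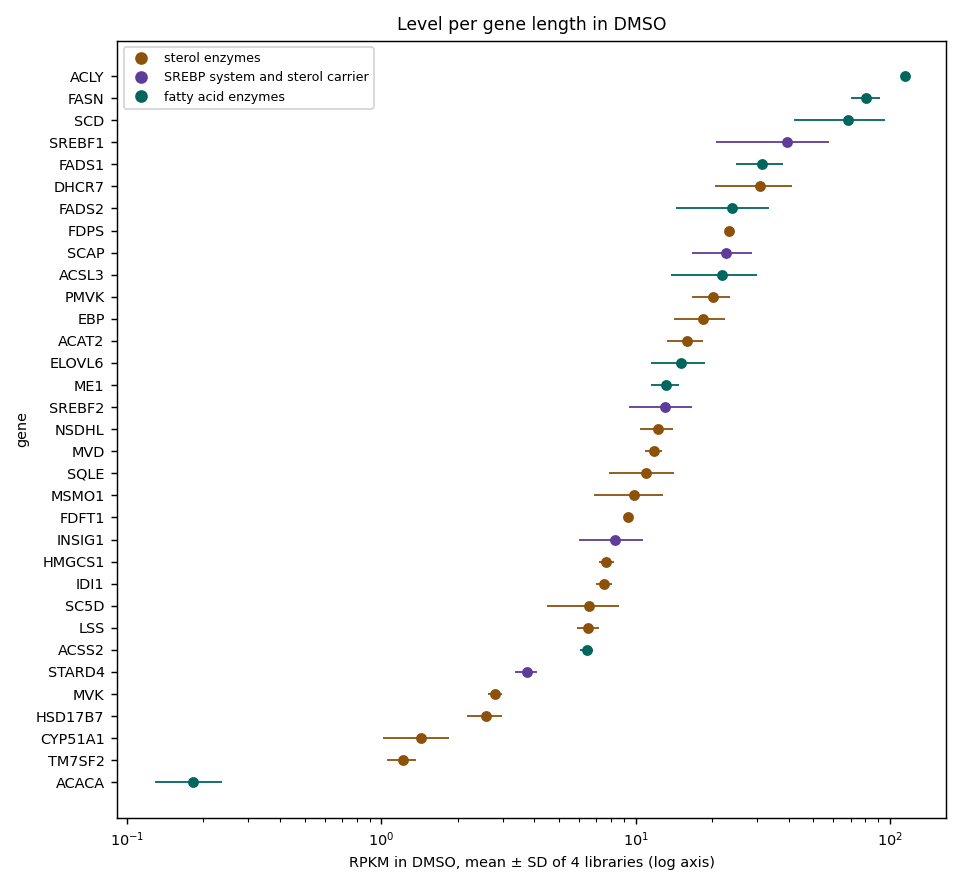
Mean RPKM ± SD of 4 DMSO libraries (log axis) for each of the 33 genes, ordered by level and coloured by role. ACLY, FASN and SCD lie at the top between 68.6 and 115 RPKM, and ACACA lies at the bottom at 0.182 RPKM.

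The sequences before the gene starts are shown because SREBPs bind promoters together with the factors NF-Y and Sp1, and whether these letters go with the changes of the members was not tested. Promoter windows from RefSeq (GRCh38.p14) matched 29 of the 33 members by symbol, leaving SQLE, FASN, ACAT2 and FDFT1. The 250 bases before each start were searched on both strands for 4 motifs, none of which contains another. The sterol regulatory element, as TCACNCCAC, was found in 1 member, SREBF2, or 3.45% of members, against 1.09% of 27305 genes with a window. The CCAAT box bound by NF-Y was found in 72.4% of members (21 of 29), against 37% of all genes and 41.1% of 10556 tested genes with a window. The Sp1 motif GGGCGG was found in 96.6% of members, against 46.2% of all and 73.2% of tested genes, and the E-box CACGTG in 10.3% against 7.73% and 11%. These shares describe letters in a window and not binding.

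A choice of 6 windows follows, 5′ to 3′ on the gene's strand, cut where the GENCODE v29 gene begins, with the sterol regulatory element and every CCAAT or its reverse complement ATTGG in capitals.
HMGCS1: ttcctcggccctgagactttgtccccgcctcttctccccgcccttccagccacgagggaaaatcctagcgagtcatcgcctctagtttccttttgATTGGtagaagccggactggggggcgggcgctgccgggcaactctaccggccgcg
TM7SF2: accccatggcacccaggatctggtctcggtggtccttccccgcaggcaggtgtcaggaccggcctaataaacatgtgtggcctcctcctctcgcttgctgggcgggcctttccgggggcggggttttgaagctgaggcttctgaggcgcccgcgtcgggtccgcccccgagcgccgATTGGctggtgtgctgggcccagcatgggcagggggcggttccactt
HSD17B7: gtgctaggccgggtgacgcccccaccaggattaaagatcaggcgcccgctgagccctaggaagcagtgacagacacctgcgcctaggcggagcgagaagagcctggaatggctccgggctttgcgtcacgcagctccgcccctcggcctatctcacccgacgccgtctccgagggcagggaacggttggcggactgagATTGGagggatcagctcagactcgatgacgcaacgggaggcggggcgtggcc
SREBF2: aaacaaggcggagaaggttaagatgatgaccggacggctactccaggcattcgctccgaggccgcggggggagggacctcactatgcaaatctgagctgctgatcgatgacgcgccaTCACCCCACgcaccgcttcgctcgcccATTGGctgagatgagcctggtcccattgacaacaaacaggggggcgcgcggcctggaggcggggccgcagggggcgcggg
STARD4: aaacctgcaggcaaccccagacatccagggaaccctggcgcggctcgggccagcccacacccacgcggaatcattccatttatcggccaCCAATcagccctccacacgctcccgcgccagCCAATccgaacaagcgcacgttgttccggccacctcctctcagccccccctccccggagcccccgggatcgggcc
SCD: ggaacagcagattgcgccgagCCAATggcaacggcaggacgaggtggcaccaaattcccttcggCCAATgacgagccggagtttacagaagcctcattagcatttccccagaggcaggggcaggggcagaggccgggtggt
They lie at chr5:43313513-43313662 on the minus strand (HMGCS1), chr11:65111622-65111844 on the plus strand (TM7SF2) and chr1:162790452-162790701 on the plus strand (HSD17B7). The others lie at chr22:41832855-41833078 on the plus strand (SREBF2), chr5:111512591-111512785 on the minus strand (STARD4) and chr10:100346983-100347123 on the plus strand (SCD). HMGCS1, HSD17B7 and TM7SF2 are shown because they had the largest rises described below, and SREBF2, STARD4 and SCD because they fell with paclitaxel. The sterol regulatory element of SREBF2 lies 133 to 125 bases before its start, and its CCAAT box 106 to 102 bases before it. STARD4 and SCD carry 2 CCAAT boxes each and HSD17B7 and TM7SF2 1 each. No member with a window but SREBF2 had a sterol regulatory element. No CCAAT box was found in the windows of SREBF1, ELOVL6, FADS1, FADS2 and ME1, which also fell with paclitaxel. INSIG1, ACLY and ACSS2, which fell with it too, carry a CCAAT box in at least 1 window. The Sp1 motif was found in all of these genes.

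Paclitaxel lowered 11 members and raised 2, against DMSO. Of all tested genes 20.5% were called in this comparison, 11.9% lower and 8.65% higher, at an adjusted p under 0.05 in edgeR. The falls lay in the SREBP system (4 of 5 genes) and among the fatty acid enzymes (7 of 10), and no sterol enzyme fell while 2 of 18 rose. The median log2 fold change was −0.36 in the SREBP system, −0.29 in the fatty acid enzymes and −0.02 in the sterol enzymes, against −0.00 over all tested genes. Libraries of the 2 groups did not overlap within either set in 13 of 33 members, against 25.8% of all genes. With afatinib this held for 10 members against 27.7%, and with the combination for 16 against 37.7%. All 3 comparisons with DMSO use the same 4 DMSO libraries.

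The combination raised 10 members and lowered 8, against 38% of all tested genes called, 18.5% higher and 19.5% lower. Of the sterol enzymes 8 rose and 2 fell, of the fatty acid enzymes 2 rose and 4 fell, and in the SREBP system 2 fell. The median log2 fold change over all members was 0.00, with 0.10 in sterol enzymes and −0.13 in the SREBP system. Afatinib moved the fewest, with 3 members higher and 2 lower against 19.1% of all tested genes called (9% higher, 10.1% lower), and 11 with the replicate number as a block (7 higher, 4 lower). Beyond the concentration set, 14 of 24 pairs of libraries with the same number correlated above 0.1, with a median of 0.126 (−0.00327 to 0.233). The 2 libraries of a group in a set deviate from their mean by opposite amounts, so each of these correlations is counted 2 times. A weak pairing by number within the sets may remain. The main fit does not hold such a pairing. Without 1 library the afatinib count ran from 2 (without afatinib replicate 2) to 8 (without combination replicate 4), and it was 3 without afatinib replicate 3, DMSO replicate 1 or DMSO replicate 2.

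**Figure D2:**
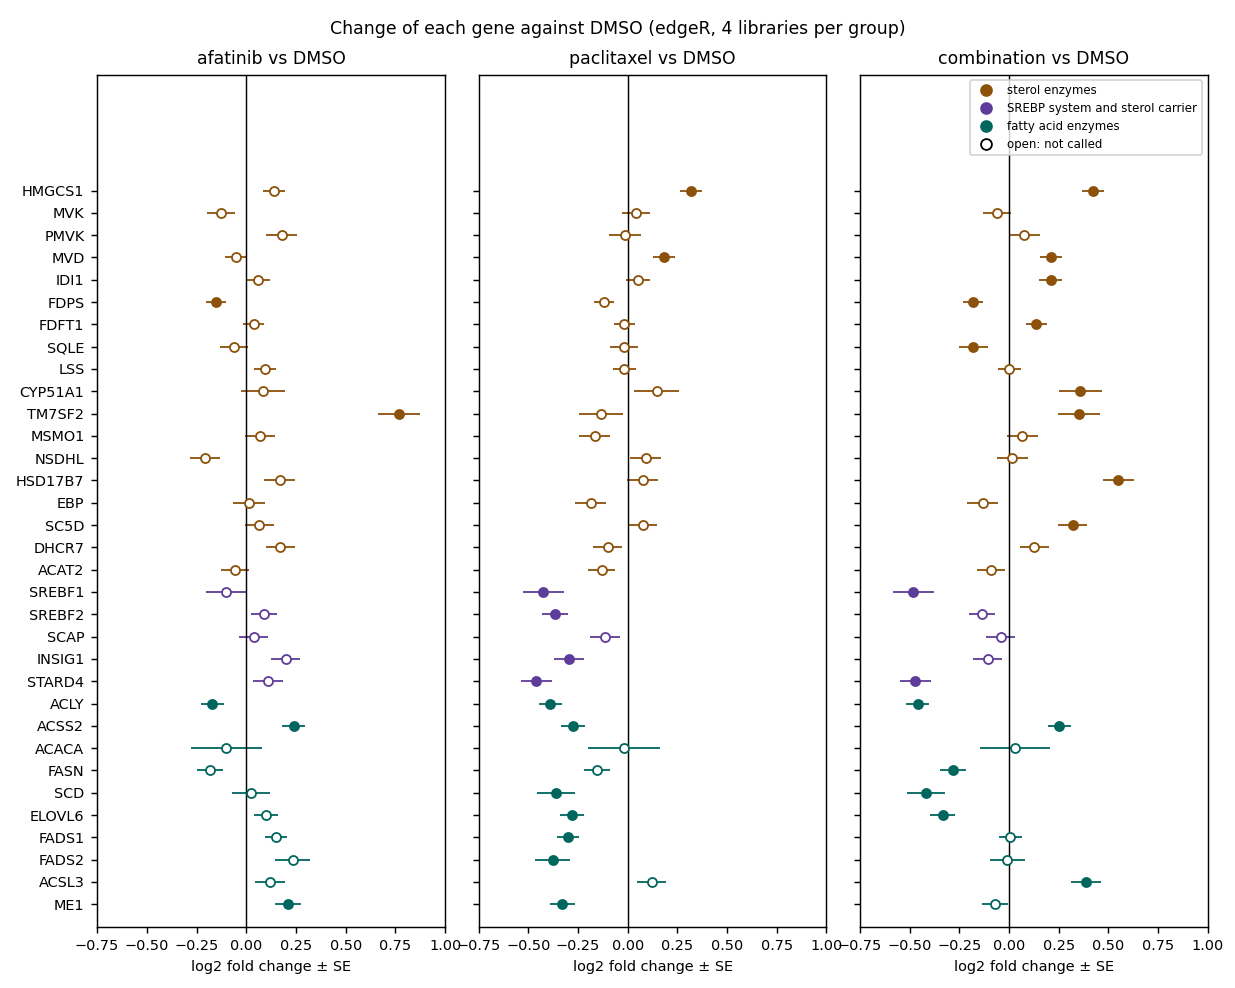
Log2 fold change ± SE of each member against DMSO with afatinib, paclitaxel and the combination, 4 libraries per group, with filled points for calls at an adjusted p under 0.05. With paclitaxel the filled points left of 0 belong to the SREBP system and the fatty acid enzymes, and with the combination 8 sterol enzymes have filled points right of 0.

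Positions are those of GENCODE v29 on GRCh38. Among the sterol enzymes, HMGCS1 (ENSG00000112972, chromosome 5, 43289395 to 43313512), the cytosolic synthase that joins acetoacetyl-CoA and acetyl-CoA at the start of the mevalonate pathway, rose with paclitaxel and with the combination. Its levels in replicates 1 to 4 were 38.8, 33.2, 37.2 and 35.3 CPM in DMSO and 40.6, 40.7, 37.8 and 40.1 CPM with afatinib. They were 44.8, 46.5, 45.2 and 43.8 CPM with paclitaxel and 50.2, 48.2, 48.8 and 46.5 CPM in the combination. All 4 libraries of paclitaxel and all 4 of the combination lay above the highest DMSO library, while afatinib and DMSO overlapped. The log2 fold change was 0.32 ± 0.06, adjusted p = 0.000158 with paclitaxel and 0.42 ± 0.06, adjusted p = 1.12e-06 with the combination, with 0.35 and 0.30 and then 0.45 and 0.39 in the first and second set. With afatinib it was 0.14 ± 0.06 and not called (adjusted p = 0.079), but called with the replicate block (adjusted p = 0.0487). The antisense gene AC114947.2 shares 15% of the exon bases of HMGCS1, and the strand used for counting is not stated.

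HSD17B7 (ENSG00000132196, chromosome 1, 162790702 to 162812817), the ketosteroid reductase that acts in the removal of a methyl group from the sterol ring, rose in the combination. In replicates 1 to 4 DMSO gave 8.73, 9.79, 12.1 and 11.9 CPM and afatinib 9.84, 11.2, 13.6 and 13.1 CPM. Paclitaxel gave 10.2, 10.5, 11.5 and 12.5 CPM and the combination 14.7, 14.8, 15.4 and 17.1 CPM. Every combination library lay above every library of the other 3 groups. The log2 fold change was 0.55 ± 0.08, adjusted p = 2.46e-06 against DMSO, 0.38 ± 0.08, adjusted p = 0.000408 against afatinib and 0.48 ± 0.08, adjusted p = 5.7e-05 against paclitaxel. Against DMSO the single drugs gave 0.17 ± 0.08 and 0.08 ± 0.08, neither called. The combination minus the sum of both single changes was 0.31 ± 0.11 and did not pass adjustment (adjusted p = 0.202).

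TM7SF2 (ENSG00000149809, chromosome 11, 65111845 to 65116384), a sterol reductase that removes a double bond from the sterol ring, had the largest rise of any member with afatinib. The DMSO libraries held 3.73, 3.66, 4.38 and 4.8 CPM and the afatinib libraries 6.84, 5.44, 8.77 and 7.23 CPM. The paclitaxel libraries held 3.71, 3.41, 3.71 and 4.18 CPM and the combination libraries 5.15, 4.55, 6.1 and 5.29 CPM. The afatinib libraries all exceeded the highest DMSO library, and the combination lay between afatinib and DMSO within both sets. The rise with afatinib was 1.7-fold (0.77 ± 0.10, adjusted p = 1.07e-05), with 0.74 and 0.80 within the sets. In the combination the change was 0.35 ± 0.11, adjusted p = 0.0104 against DMSO and −0.42 ± 0.10, adjusted p = 0.00285 against afatinib alone. The rise in the combination was not called with the labelled concentration as a further term (adjusted p = 0.156).

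FDPS (ENSG00000160752, chromosome 1, 155308748 to 155320666), the synthase of farnesyl diphosphate, moved the other way. Levels in DMSO were 86.1, 88.2, 85.5 and 88.1 CPM, and those with afatinib 79.6, 76.6, 77.1 and 80.1 CPM. Under paclitaxel the 4 values were 80.8, 82.3, 79.2 and 78.5 CPM, and under the combination 80.6, 76, 70.9 and 79.2 CPM. All libraries of the 3 treated groups lay below the lowest DMSO library. FDPS fell with the combination (−0.18 ± 0.05, adjusted p = 0.00562) and with afatinib (−0.15 ± 0.05, adjusted p = 0.0363), and its change with paclitaxel was −0.12 ± 0.05 (adjusted p = 0.105). The afatinib call was lost without afatinib replicates 1, 2 or 3 or DMSO replicates 1, 2 or 4 (adjusted p = 0.0566 to 0.109), and with the labelled concentration as a further term (adjusted p = 0.0627). RUSC1-AS1 on the opposite strand shares 18.6% of the exon bases of FDPS.

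MVD (ENSG00000167508, chromosome 16, 88651935 to 88663161), the decarboxylase that turns mevalonate diphosphate into isopentenyl diphosphate, rose with paclitaxel and with the combination. Its levels were 56.6, 60.6, 50.8 and 54.3 CPM in DMSO and 57.6, 54.9, 52 and 49.6 CPM with afatinib. With paclitaxel they were 67.7, 65.2, 61 and 58.2 CPM and in the combination 65.7, 75.4, 59.2 and 57.9 CPM. Within both sets the paclitaxel and combination libraries lay above those of DMSO, although the whole groups overlapped. The change was 0.18 ± 0.06, adjusted p = 0.0201 with paclitaxel and 0.21 ± 0.06, adjusted p = 0.00335 with the combination. The paclitaxel call was lost without DMSO replicate 1 or paclitaxel replicates 1 or 3 (adjusted p = 0.0539 to 0.0669) and with the labelled concentration as a further term (adjusted p = 0.081).

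DHCR7 (ENSG00000172893, chromosome 11, 71428193 to 71452868), which makes cholesterol from 7-dehydrocholesterol and had the highest RPKM of the sterol enzymes, was set apart by the concentration sets more than by the drugs. In replicates 1 to 4 DMSO gave 91.2, 97.1, 142 and 184 CPM and afatinib 104, 106, 200.1 and 170.4 CPM. Paclitaxel gave 93.5, 88.2, 142 and 152 CPM and the combination 99.1, 111, 158 and 189.7 CPM. Replicates 3 and 4 lay above replicates 1 and 2 in each group. Against DMSO it was not called (0.17 ± 0.07, −0.10 ± 0.07 and 0.13 ± 0.07 with afatinib, paclitaxel and the combination), and the 95% confidence interval with afatinib was 0.02 to 0.32. It was higher in the combination than with paclitaxel (0.23 ± 0.07, adjusted p = 0.0259), a call lost without combination replicates 2 or 4 or paclitaxel replicates 2, 3 or 4 (adjusted p = 0.0507 to 0.0867).

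Of the other sterol enzymes, the isomerase IDI1 (0.21 ± 0.06), the demethylase CYP51A1 (0.36 ± 0.11), the desaturase SC5D (0.32 ± 0.07) and the squalene synthase FDFT1 (0.14 ± 0.05) rose in the combination. The change of IDI1 was 0.33 and 0.09 in the first and second set, and it was not called within the second (adjusted p = 0.527). The squalene epoxidase SQLE fell there (−0.18 ± 0.07). The FDFT1 call was lost without afatinib replicate 3, combination replicates 2 or 4 or DMSO replicates 1, 3 or 4 (adjusted p = 0.0508 to 0.0947). The SQLE call was lost without afatinib replicates 1 or 2, combination replicates 1, 2 or 3, DMSO replicates 1, 2 or 4 or paclitaxel replicates 1 or 4 (adjusted p = 0.0538 to 0.19). With the labelled concentration as a further term FDFT1, CYP51A1 and SC5D were not called either (adjusted p = 0.117, 0.228 and 0.133). CYP51A1 shares 83.2% of its exon bases with other genes, 2 of them on its own strand, so its counts are uncertain. By chromosome and position these are IDI1 (10, 1039152 to 1049170), CYP51A1 (7, 92112151 to 92134803), SC5D (11, 121292453 to 121308694), FDFT1 (8, 11795573 to 11839309) and SQLE (8, 124998497 to 125022283).

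The remaining sterol enzymes passed in no comparison with DMSO. They are the kinases MVK and PMVK, the cyclase LSS, the oxidase MSMO1, the dehydrogenase NSDHL, the isomerase EBP and the thiolase ACAT2, which shares 52.3% of its exon bases with genes on the opposite strand. NSDHL came nearest with afatinib (−0.21 ± 0.08, adjusted p = 0.0585, and 0.0279 with the replicate block). EBP with paclitaxel (−0.19 ± 0.08, adjusted p = 0.101) passed only with that block (adjusted p = 0.0457). For LSS in the combination the difference was 0.00 ± 0.06, with a 95% confidence interval of −0.11 to 0.12. These genes are MVK (12, 109573255 to 109598117), PMVK (1, 154924734 to 154936991), LSS (21, 46188141 to 46228824), MSMO1 (4, 165327623 to 165343160), NSDHL (X, 152830967 to 152869729), EBP (X, 48521158 to 48528716) and ACAT2 (6, 159760328 to 159779055).

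In the SREBP system, SREBF1 (ENSG00000072310, chromosome 17, 17810399 to 17837002) had the widest spread. The DMSO libraries held 188, 208, 359 and 506 CPM and the afatinib libraries 172, 174, 447 and 410.3 CPM. The paclitaxel libraries held 155, 150.0, 289.5 and 333 CPM and the combination libraries 118, 133, 309.5 and 385 CPM. Within each set the paclitaxel libraries lay below those of DMSO, and over both sets the groups overlapped. The combination libraries lay below those of DMSO in the first set and overlapped them in the second. SREBF1 fell with paclitaxel (−0.42 ± 0.10, adjusted p = 0.00574) and with the combination (−0.48 ± 0.10, adjusted p = 0.000944). In the first and second set the change was −0.37 and −0.47 with paclitaxel and −0.66 and −0.31 with the combination. Within the second set alone neither fall was called (adjusted p = 0.103 with paclitaxel and 0.178 with the combination). With afatinib SREBF1 changed by −0.10 ± 0.10 (adjusted p = 0.538).

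SREBF2 (ENSG00000198911, chromosome 22, 41833079 to 41907308), which encodes SREBP-2, fell with paclitaxel. Levels in DMSO were 74, 77.6, 114 and 129 CPM, and those with afatinib 79.4, 84, 138 and 118 CPM. Under paclitaxel the 4 values were 60.0, 61.7, 89.3 and 93.5 CPM, and under the combination 69.6, 80.8, 98.8 and 104 CPM. Within each set both paclitaxel libraries were lower than both DMSO libraries. The change was −0.36 ± 0.07, adjusted p = 0.000232 with paclitaxel and −0.13 ± 0.07 with the combination (adjusted p = 0.109). The combination was higher than paclitaxel (0.23 ± 0.07, adjusted p = 0.0116), a call lost without combination replicate 2 (adjusted p = 0.074). It was lower than afatinib (−0.22 ± 0.07, adjusted p = 0.0114), a call lost without afatinib replicate 3 or combination replicate 3 (adjusted p = 0.0585 to 0.0708).

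INSIG1 (ENSG00000186480, chromosome 7, 155297776 to 155310235), which retains the SREBPs in the endoplasmic reticulum and is itself induced by them, fell with paclitaxel. Its levels were 20.8, 26, 35.4 and 39.5 CPM in DMSO and 26.7, 28.8, 42.8 and 40.5 CPM with afatinib. With paclitaxel they were 19.2, 21.6, 27.7 and 29.5 CPM and in the combination 22.3, 25.1, 31.6 and 32.2 CPM. In the first set paclitaxel and DMSO overlapped, and in the second the paclitaxel libraries lay below those of DMSO. The afatinib libraries lay above those of DMSO within both sets. The change was −0.30 ± 0.07, adjusted p = 0.00516 with paclitaxel (−0.19 and −0.39 in the first and second set, the former not called within its set, adjusted p = 0.348) and 0.20 ± 0.07, adjusted p = 0.0561 with afatinib. The latter passed with the replicate block (adjusted p = 0.0135). The combination was lower than afatinib (−0.31 ± 0.07, adjusted p = 0.00244), and against paclitaxel it passed only with the block (0.19 ± 0.07, adjusted p = 0.065, and 0.0204 with the block).

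STARD4 (ENSG00000164211, chromosome 5, 111496033 to 111512590), a carrier that moves sterol between membranes, fell with paclitaxel and with the combination. In replicates 1 to 4 DMSO gave 21.1, 20.7, 24 and 19 CPM and afatinib 22.7, 23.7, 22.3 and 22.9 CPM. Paclitaxel gave 16.6, 14.6, 16.8 and 13.6 CPM and the combination 13.9, 15.9, 16 and 15.5 CPM. All 8 libraries that had received paclitaxel lay below all 8 that had not. The change was −0.46 ± 0.08, adjusted p = 0.000128 with paclitaxel and −0.47 ± 0.08, adjusted p = 2.83e-05 with the combination, and the combination differed from paclitaxel by −0.01 ± 0.08 (95% confidence interval −0.18 to 0.15). STARD4 was the only gene of this role that did not differ between the concentration sets (0.01 ± 0.06, adjusted p = 0.831). SCAP, the escort of the SREBPs, passed in no comparison of treatments (0.04 ± 0.07, −0.11 ± 0.07 and −0.04 ± 0.07 against DMSO). SCAP lies on chromosome 3 at 47413694 to 47477126.

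**Figure D3:**
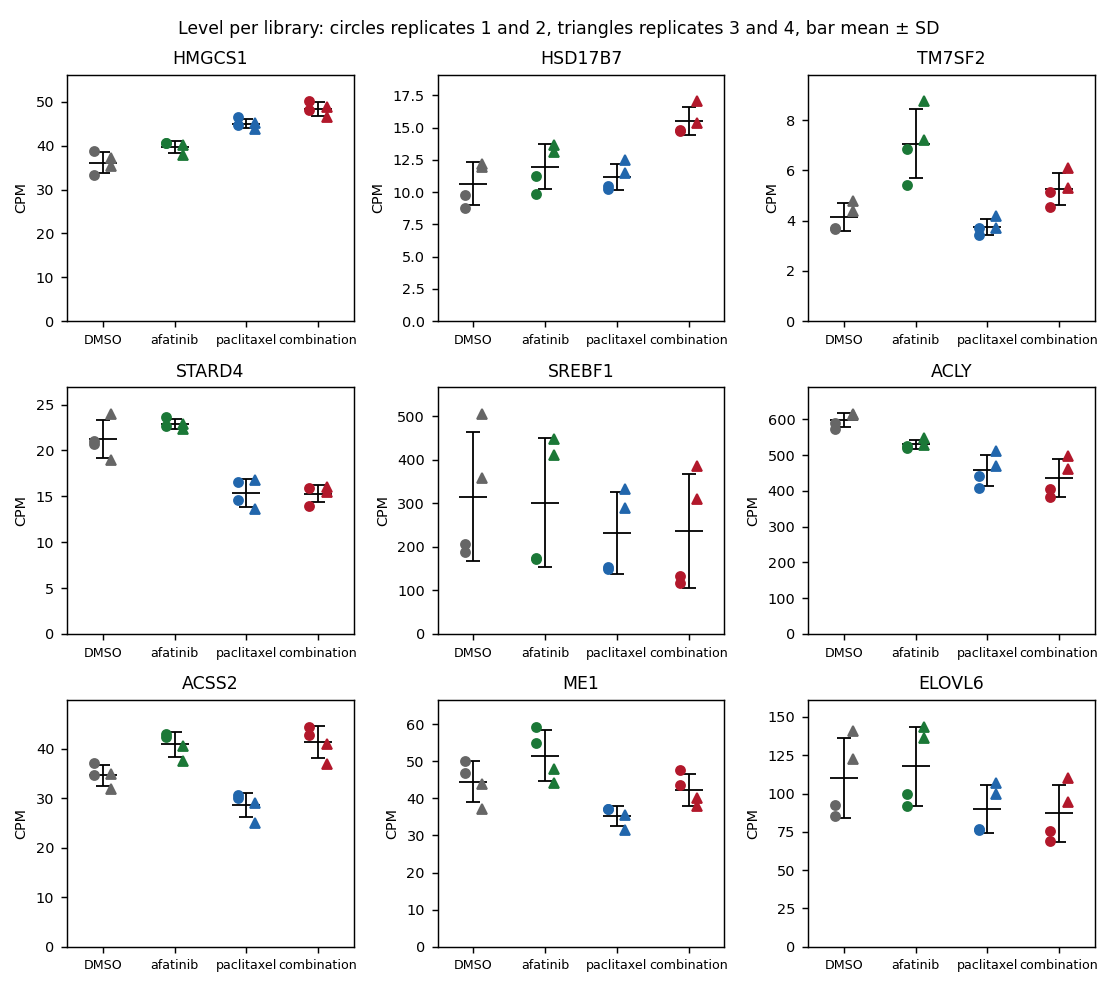
CPM of 9 members in each of 16 libraries, with circles for replicates 1 and 2, triangles for replicates 3 and 4, and bars for the mean ± SD of 4 libraries. STARD4 is lower in both groups given paclitaxel, HMGCS1 is highest in the combination on average, and ACSS2 is lowest with paclitaxel alone.

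Among the fatty acid enzymes, ACLY (ENSG00000131473, chromosome 17, 41866908 to 41930542) fell in all 3 treated groups. The DMSO libraries held 591, 572, 613 and 616 CPM and the afatinib libraries 526, 520.1, 549 and 529 CPM. The paclitaxel libraries held 443, 408, 511 and 469 CPM and the combination libraries 383, 405, 461 and 498 CPM. All 12 treated libraries lay below the lowest DMSO library. The change was −0.17 ± 0.06, adjusted p = 0.0417 with afatinib, −0.39 ± 0.06, adjusted p = 2.78e-05 with paclitaxel and −0.46 ± 0.06, adjusted p = 7.95e-07 with the combination. The afatinib call was lost without afatinib replicates 2, 3 or 4, DMSO replicates 1 or 2 or paclitaxel replicate 1 (adjusted p = 0.0531 to 0.149), and with the labelled concentration as a further term (adjusted p = 0.112).

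ACSS2 (ENSG00000131069, chromosome 20, 34872146 to 34927962), the enzyme that makes acetyl-CoA from acetate and so offers a second source beside ACLY, moved in opposite directions with the single drugs. Levels in DMSO were 34.8, 37.1, 34.8 and 31.9 CPM, and those with afatinib 43, 42.4, 40.6 and 37.5 CPM. Under paclitaxel the 4 values were 30.0, 30.6, 29 and 25 CPM, and under the combination 42.8, 44.4, 41 and 36.9 CPM. All 4 paclitaxel libraries lay below all 12 others, and the afatinib libraries all lay above those of DMSO. ACSS2 rose with afatinib (0.24 ± 0.06, adjusted p = 0.0053), fell with paclitaxel (−0.27 ± 0.06, adjusted p = 0.00152) and rose with the combination (0.25 ± 0.06, adjusted p = 0.00126). The combination exceeded paclitaxel by 1.44-fold (0.53 ± 0.06, adjusted p = 6.26e-07) and differed from afatinib by 0.01 ± 0.06 (95% confidence interval −0.11 to 0.13). The fall with paclitaxel was just missed with the labelled concentration as a further term (adjusted p = 0.0515).

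ME1 (ENSG00000065833, chromosome 6, 83210389 to 83431071), the malic enzyme that supplies NADPH for fatty acid synthesis, followed the same order for the single drugs. Its levels were 46.7, 50.0, 44 and 37 CPM in DMSO and 54.8, 59.3, 47.8 and 44.1 CPM with afatinib. With paclitaxel they were 37, 37.2, 35.5 and 31.4 CPM and in the combination 43.6, 47.6, 40.1 and 37.8 CPM. Within each set afatinib was highest and paclitaxel lowest, with the combination overlapping DMSO in each. ME1 rose with afatinib (0.21 ± 0.06, adjusted p = 0.0199) and fell with paclitaxel (−0.33 ± 0.06, adjusted p = 0.000529), and its change in the combination was −0.07 ± 0.06 (95% confidence interval −0.20 to 0.06). The afatinib call was lost without afatinib replicates 2 or 3 or DMSO replicates 1 or 4 (adjusted p = 0.0555 to 0.0897).

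FADS1 (ENSG00000149485, chromosome 11, 61799625 to 61829318), the delta-5 desaturase of long polyunsaturated fatty acids, fell with paclitaxel alone. In replicates 1 to 4 DMSO gave 266, 262, 363 and 395 CPM and afatinib 290.4, 298, 440.0 and 394 CPM. Paclitaxel gave 219, 219.9, 286 and 316 CPM and the combination 253, 275, 367 and 398 CPM. Within each set paclitaxel was below DMSO and below the combination. The change was −0.30 ± 0.06, adjusted p = 0.000316 with paclitaxel, 0.01 ± 0.06 in the combination against DMSO and 0.31 ± 0.06, adjusted p = 0.000219 in the combination against paclitaxel. Its neighbour FADS2, the delta-6 desaturase, which overlaps it on the opposite strand of chromosome 11, gave −0.38 ± 0.09, adjusted p = 0.00379 with paclitaxel and −0.01 ± 0.09 in the combination. Against paclitaxel FADS2 in the combination was higher by 0.37 ± 0.09 (adjusted p = 0.00399). With afatinib both desaturases passed only with the replicate block (FADS1 0.15 ± 0.06, adjusted p = 0.0624, 0.038 with the block, and FADS2 0.23 ± 0.09, adjusted p = 0.067, 0.0393 with the block).

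ELOVL6 (ENSG00000170522, chromosome 4, 110045846 to 110199199), which lengthens palmitate to stearate, fell with paclitaxel and with the combination. The DMSO libraries held 85.3, 92.3, 123 and 141 CPM and the afatinib libraries 92.1, 99.6, 144 and 136 CPM. The paclitaxel libraries held 76.7, 76.4, 99.9 and 107 CPM and the combination libraries 68.8, 75.3, 94.4 and 110.0 CPM. Within each set the DMSO libraries lay above the paclitaxel and the combination libraries. The change was −0.28 ± 0.06, adjusted p = 0.00142 with paclitaxel and −0.33 ± 0.06, adjusted p = 9.01e-05 with the combination.

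SCD fell with paclitaxel (−0.36 ± 0.10, adjusted p = 0.0106) and with the combination (−0.42 ± 0.10, adjusted p = 0.00176). The paclitaxel call on SCD was lost without DMSO replicate 2 (adjusted p = 0.0537). FASN fell in the combination (−0.28 ± 0.07, adjusted p = 0.00133), with −0.45 and −0.11 in the first and second set, and was not called within the second (adjusted p = 0.49). Its changes with afatinib (−0.18 ± 0.07, adjusted p = 0.0502) and paclitaxel (−0.15 ± 0.07, adjusted p = 0.105) were not called, the former passing with the replicate block (adjusted p = 0.0341). ACSL3, which activates long-chain fatty acids with CoA, was the one other fatty acid enzyme that rose in the combination (0.39 ± 0.07, adjusted p = 0.000215). This call on ACSL3 was lost with the labelled concentration as a further term (adjusted p = 0.0743). ACACA passed in no comparison of treatments, and its SE was the largest of the members (0.03 ± 0.18 in the combination). These genes are SCD (10, 100347124 to 100364834), FASN (17, 82078333 to 82098332), ACSL3 (2, 222860934 to 222944639) and ACACA (17, 37084988 to 37406818), and FADS2 is at 61792980 to 61867354 on chromosome 11.

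**Figure D4:**
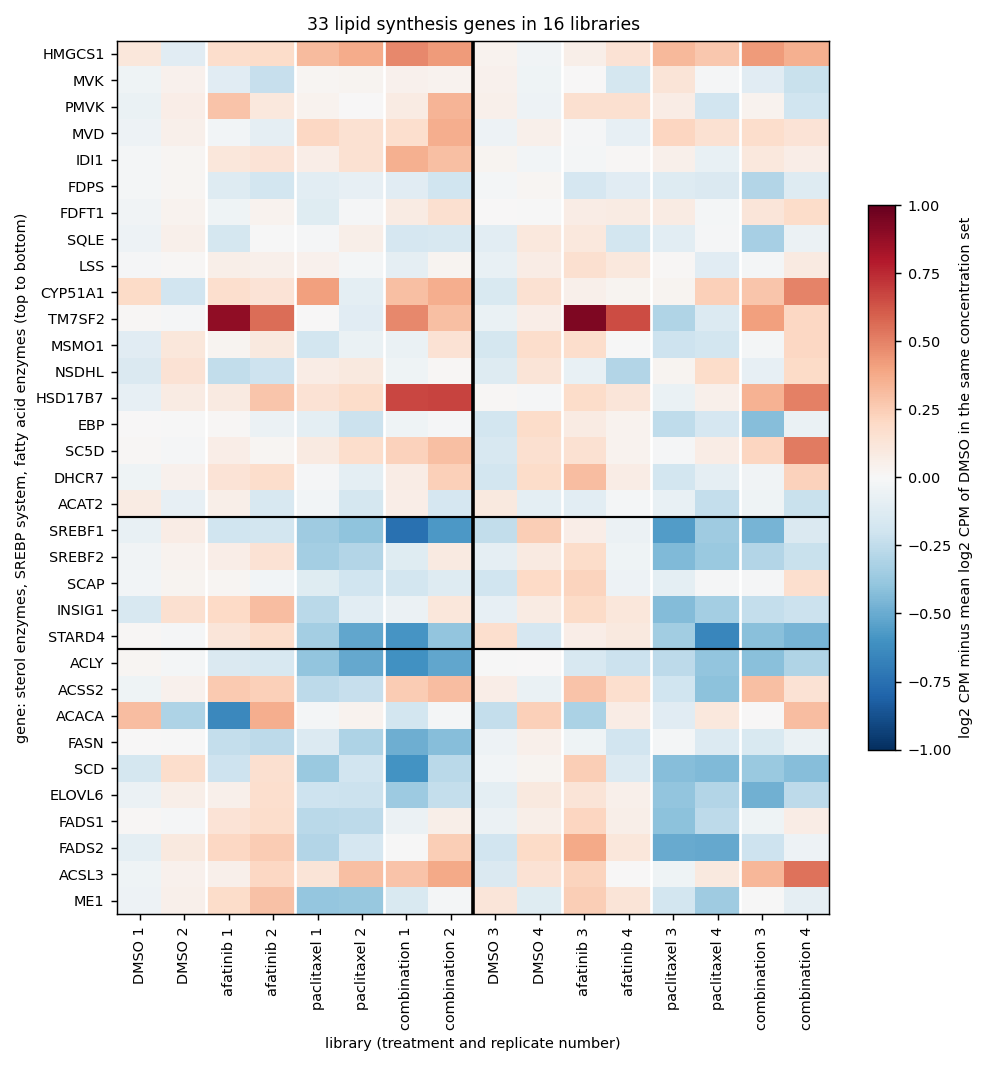
Heatmap of the 33 members (rows, by role) in 16 libraries (columns), as log2 CPM minus the mean log2 CPM of the 2 DMSO libraries of the same concentration set, from −1 (blue) to 1 (red). TM7SF2 is red in all 4 afatinib libraries, STARD4 and ACLY are blue in all 8 libraries given paclitaxel, and HMGCS1 is red in those 8.

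The combination was then compared with each drug alone. Against paclitaxel 13 members were higher and 0 lower in edgeR, where 12.6% of all tested genes were higher and 11.6% lower (24.2% called). They were 7 sterol enzymes, 5 fatty acid enzymes and SREBF2, and the largest differences were those of ACSS2 (0.53 ± 0.06), TM7SF2 (0.49 ± 0.11) and HSD17B7 (0.48 ± 0.08). At an unadjusted p under 0.05 15 members passed, and DESeq2 called 13. Only 6 of the 13 calls held without each library in turn (ACSS2, FADS1, FADS2, HSD17B7, ME1 and TM7SF2), and 8 members were called without combination replicate 2. Besides those of SREBF2 and DHCR7, calls were lost without paclitaxel replicate 3 (adjusted p = 0.0574) for ACSL3 and without combination replicate 4 or paclitaxel replicate 3 (adjusted p = 0.0666 to 0.0837) for SC5D. They were lost without combination replicates 2 or 4 or paclitaxel replicates 1 or 4 (adjusted p = 0.0632 to 0.137) for FDFT1 and without combination replicates 2 or 4 or paclitaxel replicates 1, 3 or 4 (adjusted p = 0.073 to 0.117) for MSMO1. IDI1 lost its call without afatinib replicates 3 or 4, combination replicates 1, 2 or 3, DMSO replicate 4 or paclitaxel replicates 1, 2 or 4 (adjusted p = 0.0528 to 0.15).

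Against afatinib, 6 members were higher and 10 lower in the combination, where 27.4% of all tested genes were called (13.1% higher, 14.3% lower). The SREBP system was lower in 4 of 5 genes, with STARD4 at −0.58 ± 0.08, and the fatty acid enzymes ELOVL6 (−0.43 ± 0.06), SCD (−0.44 ± 0.10), ACLY (−0.29 ± 0.06), ME1 (−0.28 ± 0.06) and FADS2 (−0.24 ± 0.09) were lower. Of the sterol enzymes 5 were higher, among them HSD17B7 (0.38 ± 0.08), HMGCS1 (0.28 ± 0.06) and MVD (0.27 ± 0.06), and TM7SF2 was lower (−0.42 ± 0.10). The FADS2 call was lost without afatinib replicates 2, 3 or 4, combination replicates 1, 3 or 4, DMSO replicates 2 or 3 or paclitaxel replicate 4 (adjusted p = 0.0506 to 0.187). NSDHL (0.22 ± 0.08) lost its call without afatinib replicates 1 or 4 or combination replicate 4 (adjusted p = 0.0587 to 0.131), and SC5D (0.25 ± 0.07) without combination replicate 4 (adjusted p = 0.0615). With the replicate block IDI1, CYP51A1 and FADS1 passed too (adjusted p = 0.0396, 0.0207 and 0.0382, against 0.0598, 0.0617 and 0.061 without it).

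Whether the combination differed from the sum of both single-drug changes was tested as an interaction. No member passed (0 of 33 in edgeR, 2 at an unadjusted p under 0.05, 1 in DESeq2), where 0.884% of all tested genes passed. ACSS2 came nearest, with the combination 0.29 ± 0.08 above the sum of the single changes (adjusted p = 0.101, 95% confidence interval 0.12 to 0.46), and it passed with the replicate block (adjusted p = 0.0194).

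The concentration sets differed in more members than any treatment. In replicates 3 and 4, which carry the lower labelled concentration and the higher mitochondrial share, 22 members were higher and 7 lower than in replicates 1 and 2, while 69.5% of all tested genes were called (36.2% higher, 33.3% lower). SREBF1 was 2.35-fold higher (1.23 ± 0.07), SCD 1.99-fold (0.99 ± 0.07), ACSL3 1.85-fold (0.89 ± 0.05) and FADS2 1.77-fold (0.82 ± 0.06). The 5 sterol enzymes that were lower were PMVK (−0.51 ± 0.06), ACAT2 (−0.40 ± 0.05), IDI1 (−0.31 ± 0.04), MVD (−0.18 ± 0.04) and MVK (−0.15 ± 0.05). HMGCS1, FDPS, FDFT1 and STARD4 did not pass, with HMGCS1 at −0.03 ± 0.04 and a 95% confidence interval of −0.11 to 0.05. The difference between sets in SREBF1 thus exceeded its fall with paclitaxel (−0.42 ± 0.10), and which property of the sets goes with it was not tested.

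The genes around these pathways were counted in 7 further lists. Of all tested genes, 9% were called higher and 10.1% lower with afatinib, and 8.65% and 11.9% with paclitaxel. With the combination these shares were 18.5% and 19.5%. The counts of some lists lie near these shares, and no list was tested as a set. Of 8 genes of SREBP processing 2 fell with paclitaxel and 3 fell and 1 rose with the combination, among them INSIG2, the second retention protein (−0.44 ± 0.08 and −0.44 ± 0.08), and the ubiquitin ligase RNF139 (−0.42 ± 0.08 in the combination). Of 14 genes of the isoprenoid branch 3 fell with afatinib, 1 fell and 1 rose with paclitaxel, and 2 fell and 2 rose with the combination. There ICMT, the methyltransferase of prenylated proteins, fell with each drug (−0.21 ± 0.05, −0.39 ± 0.05 and −0.43 ± 0.05).

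Of 18 genes of sterol uptake, efflux and storage 1 rose with afatinib, 4 fell with paclitaxel, and 7 rose and 4 fell with the combination. The cholesterol exporter ABCA1 (−0.56 ± 0.10 with paclitaxel, −0.80 ± 0.10 in the combination) and the lipoprotein receptor VLDLR (−0.69 ± 0.09 and −0.60 ± 0.09) fell, and the sterol-binding proteins OSBP (0.28 ± 0.05) and STARD3 (0.30 ± 0.06) rose in the combination. Of 18 tested genes of fatty acid elongation, activation and desaturation 2 rose and 2 fell with afatinib, 4 fell with paclitaxel, and 2 rose and 4 fell with the combination. MID1IP1, which promotes the activity of acetyl-CoA carboxylase, gave −0.22 ± 0.05 with paclitaxel and −0.51 ± 0.05 in the combination, and SLC25A1, which exports the citrate that ACLY splits, gave −0.36 ± 0.06 and −0.25 ± 0.06.

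Of 19 tested genes of triglyceride and phospholipid synthesis 4 rose and 2 fell with afatinib, 4 rose and 1 fell with paclitaxel, and 8 rose and 5 fell with the combination. The lipid droplet coat gene PLIN2 rose with each (0.31 ± 0.05, 0.44 ± 0.05 and 0.62 ± 0.05 for afatinib, paclitaxel and the combination), as did the choline kinase gene CHKA (0.33 ± 0.05, 0.42 ± 0.05 and 0.61 ± 0.05). LPCAT3, which puts polyunsaturated fatty acids into phospholipids, fell with paclitaxel (−0.45 ± 0.07) and with the combination (−0.41 ± 0.07). GPAM, the mitochondrial acyltransferase of triglyceride synthesis, fell with afatinib (−0.48 ± 0.07) and with the combination (−0.37 ± 0.07) and rose with paclitaxel (0.25 ± 0.07, adjusted p = 0.0117). Leaving out DMSO replicate 2 ended the paclitaxel call on GPAM (adjusted p = 0.0542), as did the labelled concentration as a further term (adjusted p = 0.399).

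Of 16 genes of fatty acid oxidation 1 rose with afatinib, 1 rose and 3 fell with paclitaxel, and 3 rose and 4 fell with the combination. The coactivator gene PPARGC1A rose with each (0.96 ± 0.14, 1.02 ± 0.14 and 1.35 ± 0.14) from 1.62 ± 0.346 CPM in DMSO. PPARD (−0.40 ± 0.06 and −0.31 ± 0.06) and HADH (−0.35 ± 0.06 and −0.23 ± 0.06) fell with paclitaxel and with the combination. In the combination neither fall was called with the labelled concentration as a further term (adjusted p = 0.0699 and 0.0868). Of 8 genes of NADPH supply 2 rose and 1 fell with afatinib, 4 fell with paclitaxel, and 2 rose and 1 fell with the combination. IDH1, the cytosolic isocitrate dehydrogenase, moved as ME1 did with the single drugs, up with afatinib (0.47 ± 0.06) and down with paclitaxel (−0.37 ± 0.06), and was higher in the combination than in DMSO (0.34 ± 0.06). The other gene that rose with afatinib (0.15 ± 0.05, adjusted p = 0.0492) and with the combination (0.19 ± 0.05, adjusted p = 0.00685) was NNT, the transhydrogenase of the mitochondrial inner membrane. The afatinib call on NNT was lost in 12 of 16 fits that left out 1 library (adjusted p up to 0.207). With the labelled concentration as a further term NNT was called neither with afatinib nor with the combination (adjusted p = 0.139 and 0.139).

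**Figure D5:**
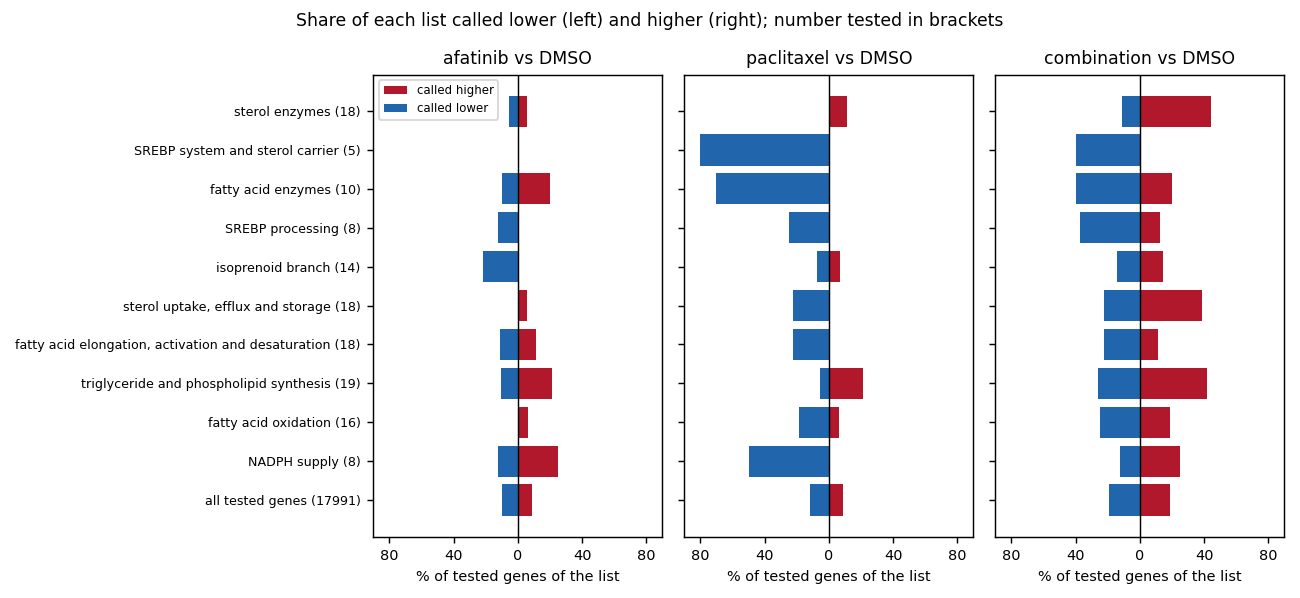
Percent of the tested genes of each list called lower (bars to the left) or higher (bars to the right) against DMSO with afatinib, paclitaxel and the combination, with all 17991 tested genes in the bottom row. With paclitaxel the SREBP system (4 of 5 lower) and the fatty acid enzymes (7 of 10 lower) have the longest bars.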

How the data were processed

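RNA sequencing libraries of 16 samples in 4 groups of 4 were used, grouped by their titles. Gene counts were deposited by the authors as whole reads per gene without normalization. The submitters' processing notes name STAR 2.7.5b, Subread 2.0.1 with featureCounts, and the build hg38. A second deposited table gives log2 values that the authors corrected for RNA concentration, used here only as an alternative. The deposited gene lengths, in bases, were used for RPKM. A further 3 numeric columns were not used. Whether counting used the strand is not given in the sources used here.

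TMM factors scaled the counts, which were tested in edgeR 4.0.16 (R 4.3.3) with the robust quasi-likelihood F-test on genes kept by filterByExpr (minimum count 10, minimum total 15). The design held the group and the concentration set, with all 16 libraries in 1 fit. P-values were adjusted by Benjamini-Hochberg over all 17991 tested genes, and a gene was called at an adjusted p under 0.05. The SE was taken as the size of the log2 fold change over the root of F, and log2 fold changes within sets come from fits on 8 libraries. The common biological coefficient of variation was 7.41%. The test was also run on simulated counts. These were drawn independently for each library, with no pairing by number and no concentration differences within a set. That run therefore says nothing of either. No 2 libraries of a group were copies (χ² per gene 7.33 to 380).

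Libraries with the same replicate number deviated together from their group means, with correlations of 0.367 to 0.704 (24 of 24 pairs above 0.1). Libraries of the same set with another number did so almost as much (0.384 to 0.67, 24 of 24). With the set mean removed, same-number pairs gave a median of 0.126 (−0.00327 to 0.233, 14 of 24 above 0.1). Here the libraries of a group in a set mirror each other, so each correlation is counted more than once among the 24. Most of the shared deviation is thus the set, which the fit holds already, and a weak pairing may remain. Only the replicate block takes the labels' numbers to pair libraries. Blocked values are printed where they change a call or a count by over 1.5 times.

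The members, lists and tests were chosen with earlier results of these data known. Every library is printed for the members with the 2 smallest adjusted p against DMSO in each role and comparison and for the highest RPKM of a role. From the related lists up to 2 genes per direction were named, by smallest adjusted p, and 1 gene so chosen is not reported here. Alternatives were DESeq2 1.42.0, RLE size factors, no filter, a null of 1.2-fold, no set term, the replicate block, log2 concentration as a further term, each set alone, only the groups compared, leaving out each library, and, chosen after seeing the data, limma 3.58.1 on the authors' log2 table. Positions come from GENCODE release 29. ELOVL4 and AGPAT1 of the related lists were not analysed here.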

Additional observations from a re-analysis of the deposited data

Results flagged for a closer look

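FDFT1 in DMSO replicate 2 stood at 50.4 CPM while the other 3 DMSO libraries lay between 47.8 and 48.2 CPM, a gap that is 0.839 of the group's range and above the limit of Dixon's test for 4 samples. It was 1 of 132 groups of 4 libraries examined over the members, and chance alone places about 1 group in 20 past this limit.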

How the results depend on the processing

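DESeq2, RLE size factors and the unfiltered table kept 93, 92 and 89 of the 94 member calls (all comparisons and the set contrast), and the replicate block kept 65 of 65 treatment calls. The member counts changed by over 1.5 times as follows, with 5, 13, 18, 16 and 13 in the report for afatinib, paclitaxel and the combination against DMSO and for the combination against afatinib and paclitaxel. With a null of 1.2-fold they were 1, 0, 5, 2 and 2 (and 19 of 29 for the set), so for most members a change above that size was not shown. Without the set term, which leaves the set difference in the residual spread, they were 1, 3, 4, 2 and 2. In replicates 3 and 4 alone, on 8 libraries, they were 1, 4, 7, 7 and 2, and in replicates 1 and 2 alone afatinib had 3, the combination against afatinib 9 and against paclitaxel 8. With log2 concentration as a further term afatinib had 3 and the set 14 (the cause was not tested), and the other counts were 11, 13, 14 and 12. The replicate block gave 11 for afatinib and 1 for the interaction, and DESeq2 1 for the interaction, each time ACSS2. On the authors' log2 table with limma, chosen after seeing the data, the counts were 2 for afatinib, 8 for paclitaxel, 7 against afatinib and 4 against paclitaxel, and the combination stayed within 1.5 times at 12. SC5D in the combination reversed there (log2 −0.00345, adjusted p = 0.989). Leaving out 1 library gave 2 to 8 for afatinib, 12 to 17 for paclitaxel, 16 to 18 for the combination, 14 to 18 against afatinib and 8 to 14 against paclitaxel. Labelled concentration differed between treatments, so its part in them cannot be told apart. ACACA had only 52 to 147 counts per library, and whether depth or its second identifier lies behind this was not tested.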
